A study of Mus musculus with 24 samples.

Results

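The genes described here are 40 antiviral genes that type I interferons induce, chosen by name from a list, out of 49315 genes in the count tables of 24 mouse brain tumours. All 40 were found by symbol and all 40 passed the filter on low counts, as did 22280 genes in all. Polyadenylated RNA was sequenced from whole tumour tissue, and 3 tumours belonged to each of 8 groups. The treatments were aCD40, D2C7-IT, both agents together (D2C7-IT+aCD40), or vehicle, and each was sampled at day 0 and at day 3. In every group the tumours grew in the brain from CT-vIII, a CT-2A mouse glioma line transduced with mouse EGFR variant III and firefly luciferase. An osmotic pump delivered the agents into the brain at 0.5 µl/h for 72 h, starting on day 6 after implantation. aCD40 is an agonist antibody (clone FGK4.5) against CD40, an activating receptor of antigen-presenting cells, given at 10 to 300 µg with the dose per tumour not stated. D2C7-IT, given at 0.2 µg, is an immunotoxin that brings a bacterial toxin which stops protein synthesis to cells with EGFR or its variant III. Vehicle tumours received 100 µg of a rat IgG2a control antibody in 2% mouse serum albumin. Day 0 is the day the pump came out and day 3 is 3 days later. The sources used here do not give the strain, sex or age of the mice.

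Type I interferons are secreted proteins, chiefly the interferon alphas and interferon beta, that cells make when they sense viral or misplaced nucleic acid. They bind the receptor of Ifnar1 and Ifnar2 on nearly all nucleated cells, whose kinases activate a complex that contains STAT2 and IRF9. The complex binds interferon-stimulated response elements, short repeats of GAAA in the promoters of antiviral genes. In the brain, microglia, astrocytes, infiltrating myeloid cells and neurons can all respond, and interferon gamma, made mainly by T cells and NK cells, induces an overlapping set of genes.

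The promoters are shown first because that repeat is the known element of many such genes. RefSeq windows (GRCm38.p6) reaching from 250 bases before to 50 after a gene's start were given for 30 of the 40 genes. The motif searched was GAAA, any 2 bases and GAAA again, on either strand, with overlapping matches counted. It was present in 16 of the 30, or 53.3% (95% Wilson interval 36.1 to 69.8%), against 1079 of 27025 genes with a window, or 3.99% (3.77 to 4.23%). With a C after it, the shares were 43.3% (13 of 30) and 0.944% (255 genes). A match describes these letters only. Capitals below mark every match within 60 bases, read 5′ to 3′ on the strand of the gene, so that a match on the other strand begins and ends with TTTC.
Isg15, chr4:156200856-156200915, minus strand: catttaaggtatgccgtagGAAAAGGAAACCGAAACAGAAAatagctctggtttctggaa
Ifit1, chr19:34640770-34640829, plus strand: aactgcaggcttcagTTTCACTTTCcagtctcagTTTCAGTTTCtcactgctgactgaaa
Ifit3, chr19:34583365-34583424, plus strand: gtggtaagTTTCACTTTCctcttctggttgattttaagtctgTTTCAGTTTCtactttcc
Ifit3b, chr19:34607761-34607820, plus strand: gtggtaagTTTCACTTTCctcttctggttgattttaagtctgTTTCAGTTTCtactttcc
Bst2, chr8:71537565-71537624, minus strand: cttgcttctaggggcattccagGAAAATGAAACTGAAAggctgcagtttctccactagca
Ddx60, chr8:61928026-61928085, plus strand: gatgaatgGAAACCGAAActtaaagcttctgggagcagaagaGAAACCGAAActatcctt
Oas1a, chr5:120907526-120907585, minus strand: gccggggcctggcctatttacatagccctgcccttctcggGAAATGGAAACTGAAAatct
Rsad2, chr12:26456538-26456597, minus strand: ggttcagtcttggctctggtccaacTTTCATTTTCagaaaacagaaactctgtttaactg
Isg15 had 3 overlapping matches, 78 to 66 bases before its start, those of Ifit1 began 104 and 85 bases before its start, and that of Rsad2 120 bases before. The Ifit3 and Ifit3b windows, of a pair of near copies, were alike at 60 of 60 bases. In 13 of the 16 genes a match lay wholly before the start, and 7 genes had at least 2 matches. The windows of Irf7, Irf9, Ifit2, Oasl1, Oasl2, Cmpk2, Xaf1, Isg20, Sp100, Lgals3bp, Ifi35, Ifi44, Herc6 and Dtx3l held no match. Some genes had several windows, and in 33 of the 37 the last 30 bases lay in a transcript of the gene. The absence of a match holds for these windows only.

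Library totals ran from 24.7 to 48.1 M counts (median 37.8 M). Levels are CPM, counts scaled to a library of 1e6 after TMM, and the gene-group score is the mean log2 CPM of the 40 genes. Tests are edgeR's quasi-likelihood tests with Benjamini-Hochberg adjustment over 22280 genes, with adjusted p under 0.05 as the threshold. A percentage in brackets after a count of genes is the share of all genes tested that met the same rule. Where a count of the 40 genes called by edgeR's main fit of all 24 libraries has none, that share was 0. Fold changes are log2 ± standard error. In bulk tissue, fewer cells and less RNA per cell cannot be told apart. Across 3 tumours the gene Egfr, whose variant the glioma line carries, stood far above the rest: aCD40 day 3 replicate 1 at 330 CPM and vehicle day 3 replicates 2 and 3 at 283 and 343 CPM, against at most 50.8 CPM in the other 21, although all 24 are labelled as brain tumour. The same 3 tumours had cell cycle marker scores of 6.55 to 6.88, against −0.13 to 3.69 in the other 21, and neuron marker scores of 6.93 to 7.68, against 8.4 to 9.35. Their monocyte and macrophage marker scores were 5.27 to 5.93, against 0.63 to 3.55, and their NK cell marker scores 1.02 to 1.32, against −3.69 to −0.05. T cell marker scores met at the edge, at 2.70 to 3.68 against −1.31 to 2.86, and microglia scores overlapped, at 5.43 to 5.71 against 4.92 to 5.84. The part of these markers in the day 3 results was not tested. Comparisons that use these 3 tumours are given with and without them.

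The 40 genes varied together from tumour to tumour. The score of the 3 D2C7-IT tumours at day 0 was 5.02, 5.27 and 4.99, above each vehicle tumour at 4.24, 3.81 and 2.44. The aCD40 tumours at day 0 had 3.42, 3.72 and 5.09, and the D2C7-IT+aCD40 tumours 3.78, 5.01 and 5.02, so both overlapped vehicle. At day 3 the D2C7-IT+aCD40 tumours had 4.80, 5.34 and 5.23, above the D2C7-IT tumours, which lay close together at 3.89, 3.95 and 3.90. The aCD40 group split at day 3, with 7.13 in its high-Egfr tumour and 4.09 and 3.77 in the others. The vehicle group split likewise, with 6.48 and 6.58 in the high-Egfr tumours and 3.83 in the other.

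**Figure D1:**
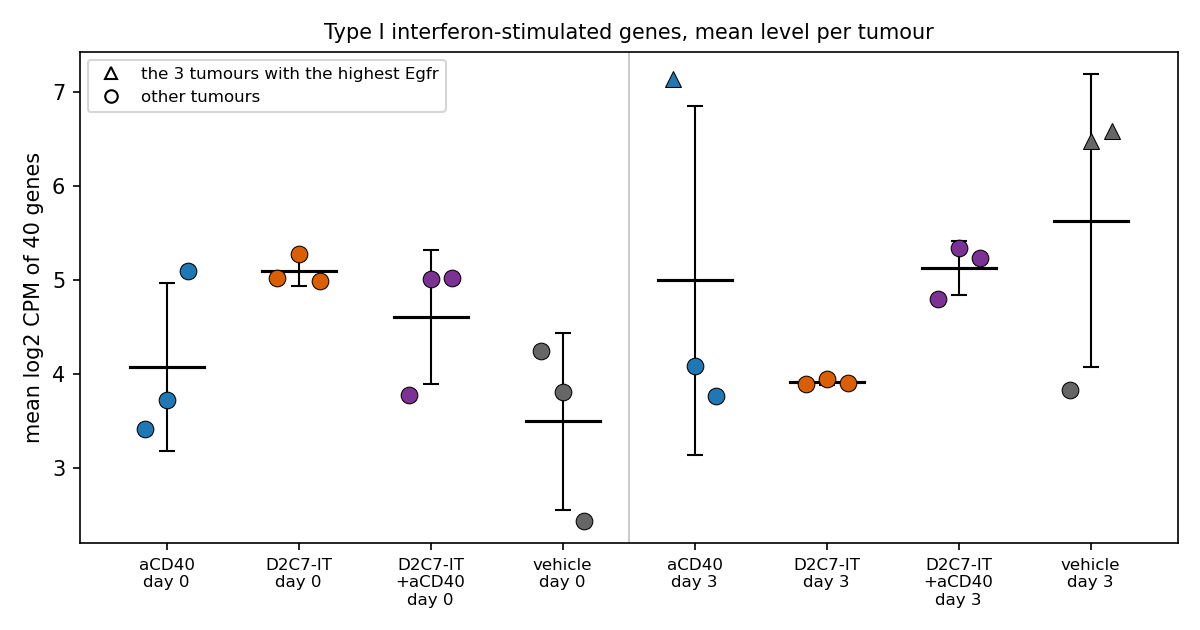
Score of the 40 interferon-stimulated genes (mean log2 CPM) in each of the 24 tumours, by treatment at day 0 and day 3; points are tumours, triangles the 3 tumours of highest Egfr, lines group means and bars SDs (n = 3). D2C7-IT at day 0 averaged 5.09 ± 0.15 against 3.49 ± 0.94 in vehicle, and D2C7-IT at day 3 averaged 3.92 ± 0.03.

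At day 0, D2C7-IT tumours had higher levels than vehicle tumours of all 40 genes, and for 40 of 40 the 3 D2C7-IT tumours lay above the 3 vehicle tumours. Over all genes tested, 11.0% lay above in this way. The median log2 fold change of the 40 was 1.40, and the median of all 22280 genes was within 0.051 of 0 in this and every other comparison. None passed edgeR's threshold (smallest adjusted p 0.42, for Mx2), which 0.0808% of all genes did. At an unadjusted p under 0.05, 11 of the 40 were higher, against 3.61% of all genes. DESeq2 called 1, Mx2, at an adjusted p of 0.036 (0.623% of all genes were called).

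Among the sensors, the RNA helicases Ddx58 (RIG-I), Ifih1 (MDA5), Dhx58 (LGP2) and Ddx60 and the Z-nucleic-acid sensor Zbp1, the median log2 fold change was 1.46. Ddx58 had 49.4, 65.2 and 50.4 CPM in D2C7-IT tumours at day 0, against 26, 18.3 and 8.24 CPM in vehicle (1.65 ± 0.73). Ddx60 had 17.3, 27.5 and 17.7 CPM, against 7.03, 5.97 and 2.56 CPM (2.00 ± 0.76). Zbp1, which can trigger necroptosis, had 22.5, 27 and 20.3 CPM, against 15.4, 8.05 and 1.76 CPM (1.46 ± 0.98). In all 3 sensors the groups did not overlap, and vehicle replicate 3 was the lowest tumour.

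The transcription factors differed less, with a median of 1.02. Irf9, the DNA-binding subunit of the interferon-activated complex, had 71.2, 90.2 and 64.9 CPM in D2C7-IT tumours, against 39, 37 and 23.2 CPM in vehicle. Its log2 fold change of 1.19 ± 0.35 had the second smallest p of the 40 (0.0033, edgeR adjusted p 0.47). Irf7, which amplifies interferon production, had 53.9, 55.9 and 52.6 CPM, against 42.2, 24.8 and 8.33 CPM (1.11 ± 0.87). Irf7 varied little among the D2C7-IT tumours, and its highest vehicle tumour came near them. Stat2 (0.93 ± 0.54) and Sp100, a nuclear body protein (0.91 ± 0.69), were smaller differences.

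The genes whose products bind or degrade RNA or hold back translation had the highest median of the role groups, 1.5. Ifit1, which binds RNA with an incompletely methylated cap, had 67.9, 87 and 65.7 CPM in D2C7-IT tumours, against 22, 26.3 and 6.7 CPM in vehicle (2.00 ± 0.83, a 4.01-fold difference). Ifit3b had 48.2, 52.9 and 44 CPM, against 16.5, 25.4 and 6.44 CPM (1.58 ± 0.60). Oasl1, which in mice restrains Irf7 translation, had 13.6, 14.5 and 13.2 CPM, against 5.89, 3.72 and 0.661 CPM (1.99 ± 1.19). In all 3 the D2C7-IT tumours lay close together and above vehicle, and the vehicle tumours of Oasl1 were far apart. Ifit3 (1.5 ± 0.64) shares 51.2% of its 50-base words with another gene, mostly Ifit3b, and Oas1a (1.43 ± 0.88) shares 57.6%, mostly with Oas1g, so reads could be split between copies.

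Mx2 stood out among the genes acting on membranes and virus assembly (group median 1.19). This gene of a dynamin-like GTPase had 22.1, 35.8 and 26.9 CPM in D2C7-IT tumours at day 0, against 5.63, 5.72 and 1.32 CPM in vehicle. The log2 fold change was 2.73 ± 0.78, a 6.64-fold difference with an unadjusted p of 0.0026. Rsad2 (viperin), which makes a chain-terminating nucleotide, had 22.5, 24.9 and 26.5 CPM, against 10.4, 12.5 and 3.31 CPM (1.49 ± 0.83). Cmpk2, the nucleotide kinase next to Rsad2 on chromosome 12, differed least of the 40, at 47.8, 46.9 and 44 CPM against 37, 39.8 and 30.7 CPM (0.37 ± 0.43).

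The ISG15 group had a median of 1.14. Isg15, a ubiquitin-like protein attached to other proteins, had 54.4, 72.3 and 39.9 CPM in D2C7-IT tumours, against 21.5, 17.6 and 3.92 CPM in vehicle (1.95 ± 0.93). Usp18, which removes it and dampens the receptor, had 34.8, 44.8 and 38.6 CPM, against 12.8, 11 and 2.6 CPM (2.16 ± 0.93). The ligase Herc6 (0.85 ± 0.73) and the Parp9 and Dtx3l pair, which act as a complex (1.18 ± 0.77 and 0.78 ± 0.79) differed less. The remaining genes, the apoptosis promoter Xaf1, the ubiquitin ligase Trim30a, Ifi44, Ifi27l2a and Ifi35, had a median of 1.34, from 0.79 ± 0.70 in Ifi35 to 2.03 ± 1.07 in Ifi44.

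**Figure D2:**
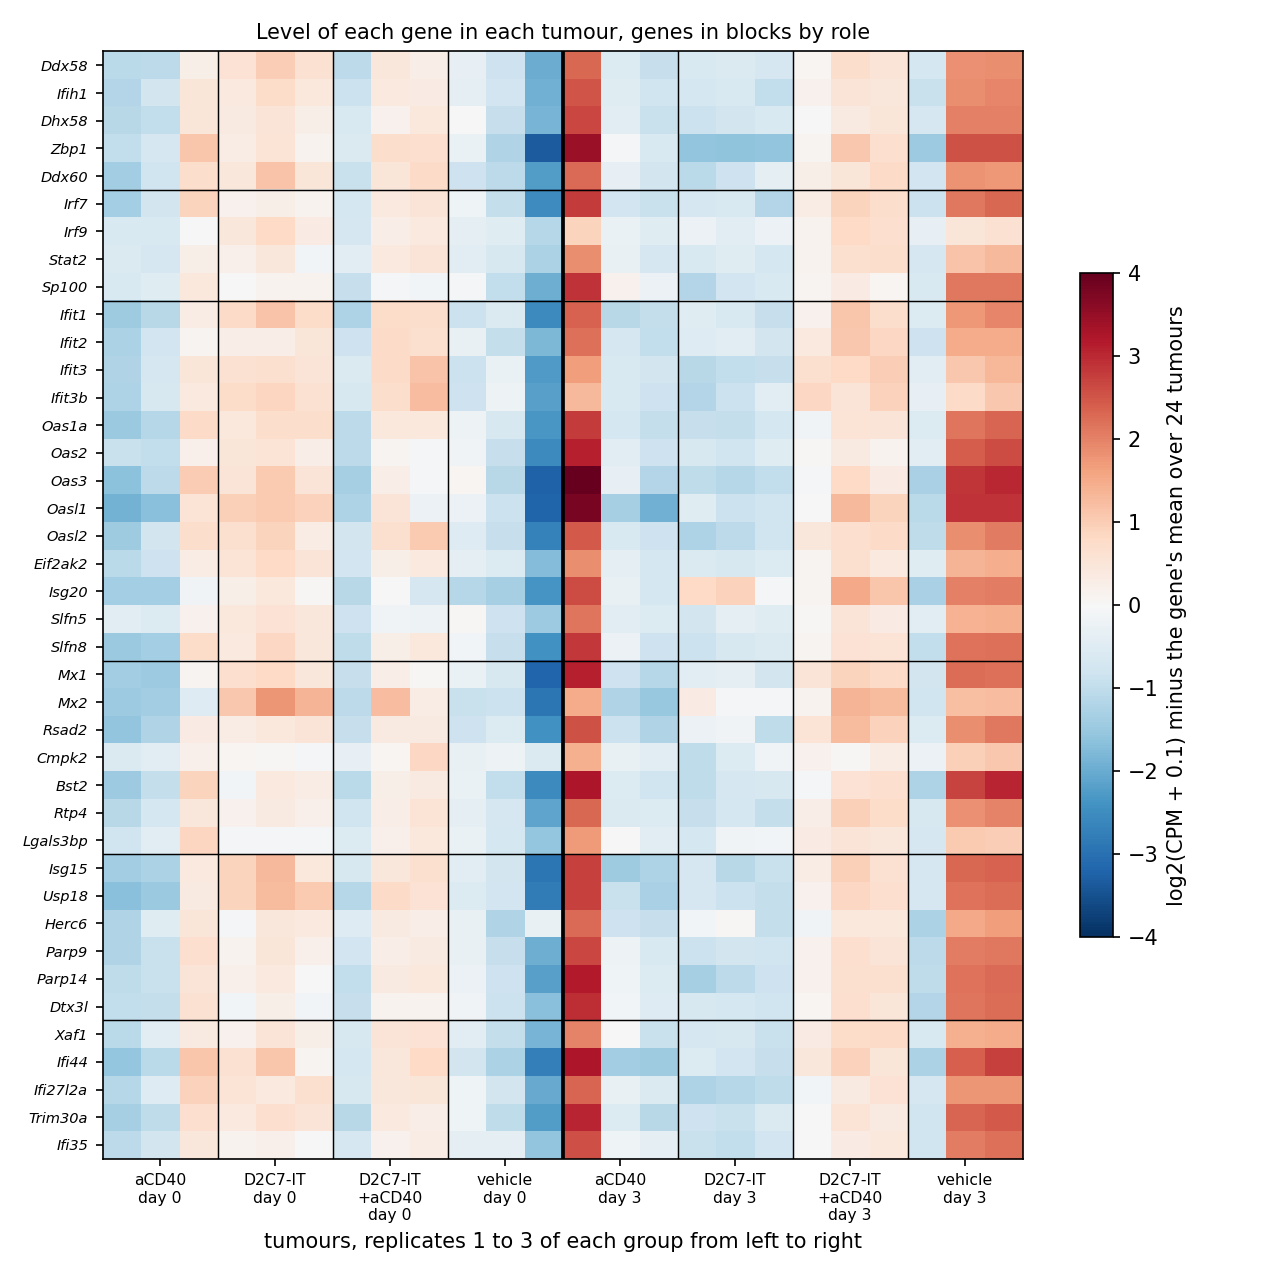
Level of each of the 40 genes in each of the 24 tumours, as log2(CPM + 0.1) minus the gene's mean over all tumours, with genes in rows by role and tumours in columns by group. The 3 D2C7-IT columns at day 0 lie above the 3 vehicle columns in every row, and 36 of the 40 genes are highest in the 3 tumours of high Egfr.

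Other cell types' markers also differed between these groups, and their part in the result was not tested. Of 7 monocyte and macrophage markers, 6 were higher in D2C7-IT at day 0 and 0 were called. Their summed level was 77.6 to 89.7 CPM, against 34.1 to 82.1 CPM in vehicle. Of 6 neutrophil markers, 5 were tested, all 5 were higher and 3 were called by edgeR (S100a8, S100a9 and Cxcr2), as were 0.0808% of all genes. The neutrophil sum was 36.8 to 42.5 CPM, against 11.8 to 31.2 CPM in vehicle. Of 6 endothelial markers 5 were higher, 4 of them at an unadjusted p under 0.05 (3.61% of all genes were higher at that level). Vwf, the clotting protein von Willebrand factor, was called (1.55 ± 0.23, edgeR adjusted p 0.021). The endothelial sum was 311 to 359 CPM, against 200 to 238 CPM in vehicle, so that the neutrophil and endothelial sums did not overlap between the groups. By marker score, the mean log2 CPM of a list, monocyte and macrophage markers did not overlap either, at 3.14 to 3.29 against 0.63 to 2.70 in vehicle. Of 6 astrocyte markers 4 were higher, 2 of them at an unadjusted p under 0.05, with sums of 3810 to 4560 CPM against 3590 to 4310 CPM. Microglia markers split, with 3 of 6 higher and sums of 301 to 395 CPM against 243 to 456 CPM. The 7 T cell markers were all higher, with sums of 14.3 to 40.7 CPM against 3.39 to 26.3 CPM, and the 4 NK cell markers likewise, with sums of 1.03 to 1.97 CPM against 0.22 to 1.63 CPM. Of 5 markers of plasmacytoid dendritic cells, which are strong interferon producers, 4 were tested and 3 were higher, with sums of 17.5 to 23.1 CPM against 22.1 to 23 CPM. The 8 cell cycle markers were all higher, with sums of 78.8 to 94 CPM, within the 9.79 to 141 CPM of vehicle. Each marker of these lists had counts in both groups. Leaving out each of the 6 tumours compared in turn kept the median of the 40 genes between 1.01 and 1.73.

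aCD40 alone at day 0 gave smaller differences from vehicle. All 40 genes had positive log2 fold changes with a median of 0.56, but 0 passed edgeR's test, 0 had an unadjusted p under 0.05 (1.36% of all genes did), DESeq2 called 0 (0.0813%), and 0 were free of overlap (3.99% of all genes lay above). The 3 smallest p-values belonged to Lgals3bp, a secreted glycoprotein (0.81 ± 0.53), Ddx60 (1.06 ± 0.75) and Zbp1 (1.25 ± 0.97), all at an edgeR adjusted p of 1. The differences rested on replicate 3 of aCD40. Isg15 was 11.2, 12.3 and 38.8 CPM with aCD40, against 21.5, 17.6 and 3.92 CPM in vehicle, and without aCD40 replicate 3 the median was −0.12.

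The combination at day 0 lay between the single agents by its median of 0.94 against vehicle, with all 40 genes positive. edgeR called 0 and DESeq2 called 0 (0.122%). At an unadjusted p under 0.05, 3 were higher (1.86% of all genes were): Mx2 (1.75 ± 0.76), Ifit3 (1.52 ± 0.64) and Ifit3b (1.49 ± 0.59). Ifit3 had 53.1, 135 and 176 CPM with the combination, against 44.1, 66.5 and 16.6 CPM in vehicle. Replicate 1 was the low tumour of the combination for Ifit3, and also for Mx2, at 4.97 CPM beside 24.8 and 13. Only Stat2, Isg20 and Ifi44 lay wholly above vehicle (5.45% of all genes did). The median was 0.62 without vehicle replicate 3 and 1.40 without vehicle replicate 1.

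Set against each agent at day 0, the combination had a median of 0.38 over aCD40 (37 of 40 higher) and of −0.37 over D2C7-IT (6 of 40 higher). Single tumours moved both: the median over aCD40 was 0.10 without aCD40 replicate 1 and 1.12 without aCD40 replicate 3, and the median over D2C7-IT was −0.08 without combination replicate 1 and −0.55 without combination replicate 3. edgeR called 0 in both, and so did DESeq2 (0.0316% and 0.0948% of all genes). At an unadjusted p under 0.05 there were 0 in both, against 0.884% and 2.77% of all genes. Against aCD40 the smallest p-values were those of Mx2 (1.51 ± 0.75), Ifit3b (0.98 ± 0.59) and Ifit3 (0.90 ± 0.63). Against D2C7-IT they were those of Slfn5, of the Schlafen family (−0.84 ± 0.58), Irf9 (−0.47 ± 0.35) and Mx2 (−0.99 ± 0.74). Slfn5 had 18.5, 29.8 and 28.1 CPM with the combination, against 43.4, 48.5 and 44.9 CPM with D2C7-IT. It was among 10 genes whose combination tumours all lay below the D2C7-IT tumours, as 8.53% of all genes did. Marker scores also differed between these groups. Monocyte and macrophage scores were 1.72 to 2.47 with the combination, against 3.14 to 3.29 with D2C7-IT. Neutrophil scores were −0.54 to 0.47 against 1.20 to 1.65, and cell cycle scores 0.65 to 2.24 against 2.78 to 3.06. Egfr was 15.1 to 23.7 CPM against 27.4 to 46.7 CPM. T cell, NK cell and microglia scores overlapped. The part of these markers was not tested. The departure from the sum of both agents had a median of −1.05 at day 0, with 1 of 40 positive, and 0 passed by edgeR, DESeq2 (0.0316%) or at an unadjusted p under 0.05 (1.62% of all genes). Without aCD40 day 0 replicate 3 that median was −0.26.

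The ligands were scarce. Of 21 interferon genes, 2 passed the filter, Ifnb1 (interferon beta) and Ifng (interferon gamma), and the 14 Ifna genes held 62 counts in all 24 libraries together. Ifnb1 at day 0 had 0, 0 and 0 counts with aCD40, 22, 51 and 11 with D2C7-IT and 0, 18 and 7 with the combination, against 1, 0 and 1 in vehicle. All 3 D2C7-IT tumours exceeded every vehicle tumour, and 84 counts against 2 made a ratio of 35.9 at equal depth (95% exact interval 9.63 to 301, for counting error only). edgeR's adjusted p, which takes in the spread between tumours, was 0.37. In counts summed over the tumours of day 0, the combination had 0.301 times the Ifnb1 of D2C7-IT (0.185 to 0.476). It had at least 7.99-fold that of aCD40, taking 3 counts over the aCD40 group as the limit of its 0. These ratios and those at day 3 below also cover counting error only, not the spread between tumours. Per tumour the combination overlapped both, with 18 counts beside 11 in a D2C7-IT tumour and 0 in replicate 1, as in each aCD40 tumour.

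At day 3 Ifnb1 had 1, 0 and 0 counts with aCD40, 9, 9 and 1 with D2C7-IT and 3, 10 and 8 with the combination, against 0, 1 and 4 in vehicle. D2C7-IT at day 3 thus had 0.233 times its day 0 level (0.133 to 0.386), and the combination had 1.06 times the D2C7-IT level at day 3 (0.544 to 2.09). For Ifng the counts of these groups were further apart. It had 23, 51 and 18 counts with the combination at day 3, against 1, 1 and 2 with D2C7-IT, a ratio of 22.1 (8.36 to 82.9). The edgeR difference was 4.35 ± 1.36 with an adjusted p of 1. In the vehicle group Ifng had 2, 97 and 125 counts at day 3, the high values again in the high-Egfr tumours.

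**Figure D3:**
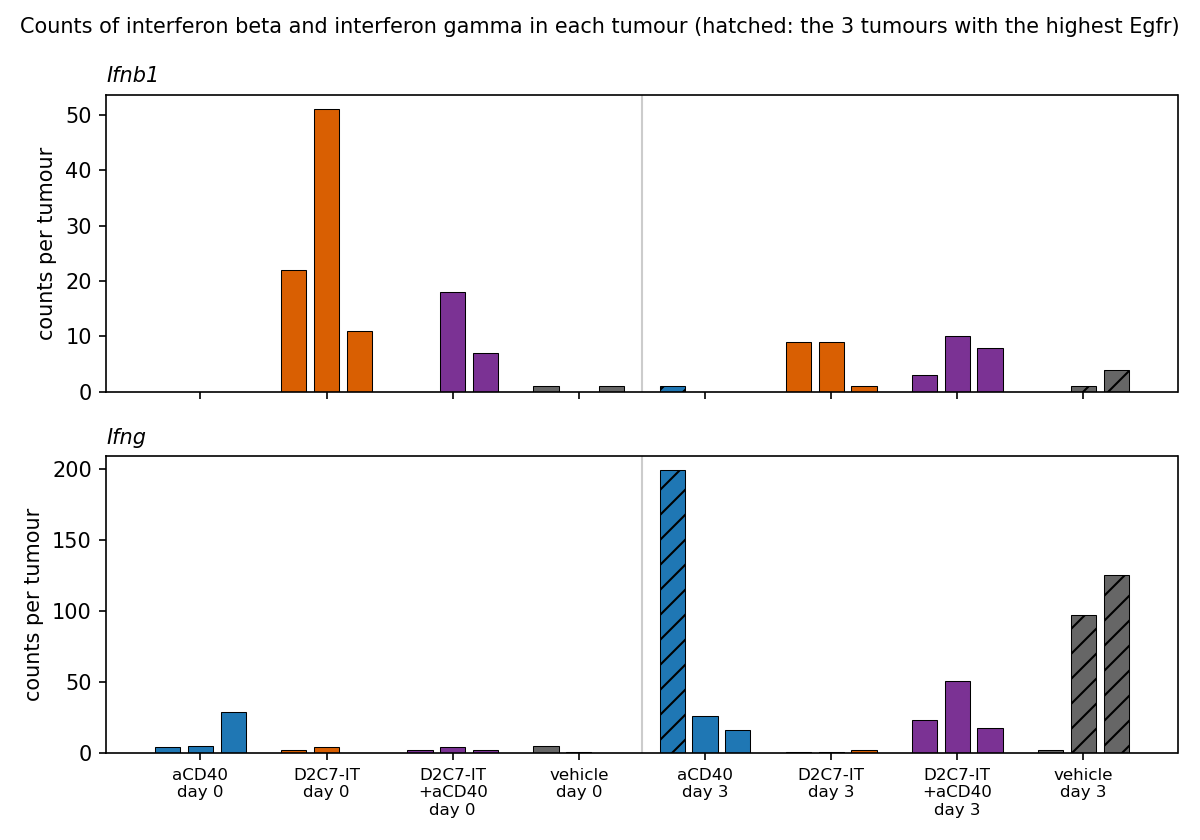
Counts of Ifnb1 and of Ifng in each of the 24 tumours by group, as bars from 0, with the 3 tumours of highest Egfr hatched. Ifnb1 peaks at 51 counts in a D2C7-IT tumour at day 0, and Ifng is highest in the hatched tumours, at 97 to 199 counts.

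The receptor and its signalling genes had a lower median than the 40 genes. Ifnar1, a receptor chain, had 57.1, 55.8 and 63.2 CPM in D2C7-IT tumours at day 0, against 59.8, 44.3 and 55.6 CPM in vehicle, so the groups overlapped. Of 20 receptor and signalling genes 18 were higher, with a median of 0.67 and 2 at an unadjusted p under 0.05. Of 29 further interferon-stimulated genes 28 were higher, with a median of 0.86 and 3 at that level. None in either list passed edgeR's threshold, which 0.0808% of all genes did, and 3.61% of all genes were higher at an unadjusted p under 0.05.

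At day 3, comparisons with vehicle turned on the high-Egfr tumours. With all tumours, D2C7-IT had lower levels than vehicle of all 40 genes, with a median of −2.29. None passed edgeR (smallest adjusted p 0.08, and 0 of all genes tested passed), 35 had an unadjusted p under 0.05 in the lower direction (18.3% of all genes), and DESeq2 called 25 (13.0%). The smallest p-values were those of Ifi35 (−2.52 ± 0.73), Sp100 (−2.48 ± 0.72) and Zbp1 (−3.61 ± 1.06). Zbp1 had 6.16, 5.92 and 6.17 CPM with D2C7-IT, against 6.67, 109 and 108 CPM in vehicle. The D2C7-IT tumours were thus near the vehicle tumour of low Egfr and far from the other two. Without the 3 high-Egfr tumours the median of the 40 was 0.02, with 1 vehicle tumour left and assumed to vary like the other groups. Without that tumour, vehicle day 3 replicate 1, edgeR called 36 (36.8% of all genes). For 11 genes the D2C7-IT tumours lay below every vehicle tumour (5.78% of all genes did).

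The other day 3 comparisons with vehicle, and the one of the combination with aCD40, turned on the same tumours. For aCD40 the median against vehicle was −0.21 with 5 of 40 higher, and edgeR called 0 and DESeq2 0 (0.154%), with 0 at an unadjusted p under 0.05 (1.91% of all genes). Its smallest p-values were those of Mx2 (−0.54 ± 0.74), Isg15 (−0.53 ± 0.90) and Ifit3b (−0.32 ± 0.58). Isg15 had 195, 11 and 12.4 CPM with aCD40, against 18.6, 145 and 151 CPM in vehicle, so each group held both high and low tumours. Without aCD40 replicate 1 the median was −2.06 and edgeR called 5 (6.58%), and without all 3 high-Egfr tumours it was 0.02. For the combination against vehicle the median was −1.0, with 3 of 40 higher, 0 called by edgeR (0.0404%) or DESeq2 (7.77%), and 2 lower at an unadjusted p under 0.05 (16.9% of all genes). Its smallest p-values were those of Oas2, a synthetase whose product activates RNase L (−1.84 ± 0.85), Sp100 (−1.47 ± 0.70) and Ifi35 (−1.38 ± 0.70). That median was −1.48 without vehicle replicate 1 and −0.64 without vehicle replicate 2. Without the 3 tumours it was 1.29, and the 3 genes were 0.67, 0.77 and 1.07, while without vehicle replicate 1 edgeR called 3 (31.2%). Against aCD40 the combination's median was −0.75, with 0 called by edgeR or DESeq2 (0.998%) and 1 lower at an unadjusted p under 0.05 (7.42% of all genes). Sp100 (−1.47 ± 0.70), Oas3 (−2.20 ± 1.15) and Oas2 (−1.55 ± 0.84) had the smallest p-values there. Without the 3 tumours the median was 1.11.

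The combination and D2C7-IT at day 3 hold none of the high-Egfr tumours. All 40 genes were higher with the combination, with a median of 1.22, and in 37 the combination tumours lay above all D2C7-IT tumours, as 6.27% of all genes did. The 3 that overlapped were Isg20, Mx2 and Herc6. None passed edgeR fitted over all groups (smallest adjusted p 1, and 0 of all genes tested passed), 6 had an unadjusted p under 0.05 (1.44% of all genes were higher at that level), and DESeq2 called 0 (0.0135%). When only the groups compared were fitted, edgeR called 2 (0.0934%), with Ifit3 at an adjusted p of 0.031.

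Ifit3 had 124, 140 and 158 CPM with the combination at day 3, against 36.6, 40.1 and 41.9 CPM with D2C7-IT (1.83 ± 0.64). Ifit3b had 51.3, 42 and 54.7 CPM, against 12.8, 15.9 and 21.2 CPM (1.57 ± 0.60). Irf9 had 56.9, 88.9 and 82.9 CPM, against 43.9, 38 and 44.1 CPM (0.86 ± 0.35). In all 3 the groups did not overlap, and in Ifit3 and Ifit3b the gap between them exceeded the range within either. Zbp1 had 19.9, 38.9 and 29.4 CPM, against 6.16, 5.92 and 6.17 CPM (2.27 ± 1.00), the largest log2 difference of the 40. Isg15 had 35.9, 57.7 and 44.7 CPM, against 18.4, 13.5 and 16 CPM (1.53 ± 0.92).

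The remaining named genes showed the same order of groups at day 3. Irf7 had 59.4, 88.3 and 78.5 CPM with the combination, against 30.3, 31.4 and 21.4 CPM with D2C7-IT (1.45 ± 0.87). Usp18 had 21.2, 33.6 and 29.7 CPM, against 11.8, 10.3 and 9.65 CPM (1.41 ± 0.91). Ifit1 had 45.1, 84.8 and 64.2 CPM, against 28, 26 and 20.9 CPM (1.38 ± 0.81). These 3 did not overlap, as held for Rsad2 and Oasl1. Rsad2 had 27, 44 and 34.8 CPM, against 15.6, 16.6 and 9.09 CPM (1.36 ± 0.83). Oasl1 had 6.86, 17.2 and 12.9 CPM, against 4.87, 3.8 and 3.93 CPM (1.55 ± 1.17). Mx2, with 11.6, 27.1 and 25.5 CPM against 13.1, 9.88 and 9.89 CPM (0.97 ± 0.74), overlapped through replicate 1 of each group. By role the medians ran from 1.05 in the transcription factors to 1.37 in the remaining genes, a narrower range than at day 0.

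**Figure D4:**
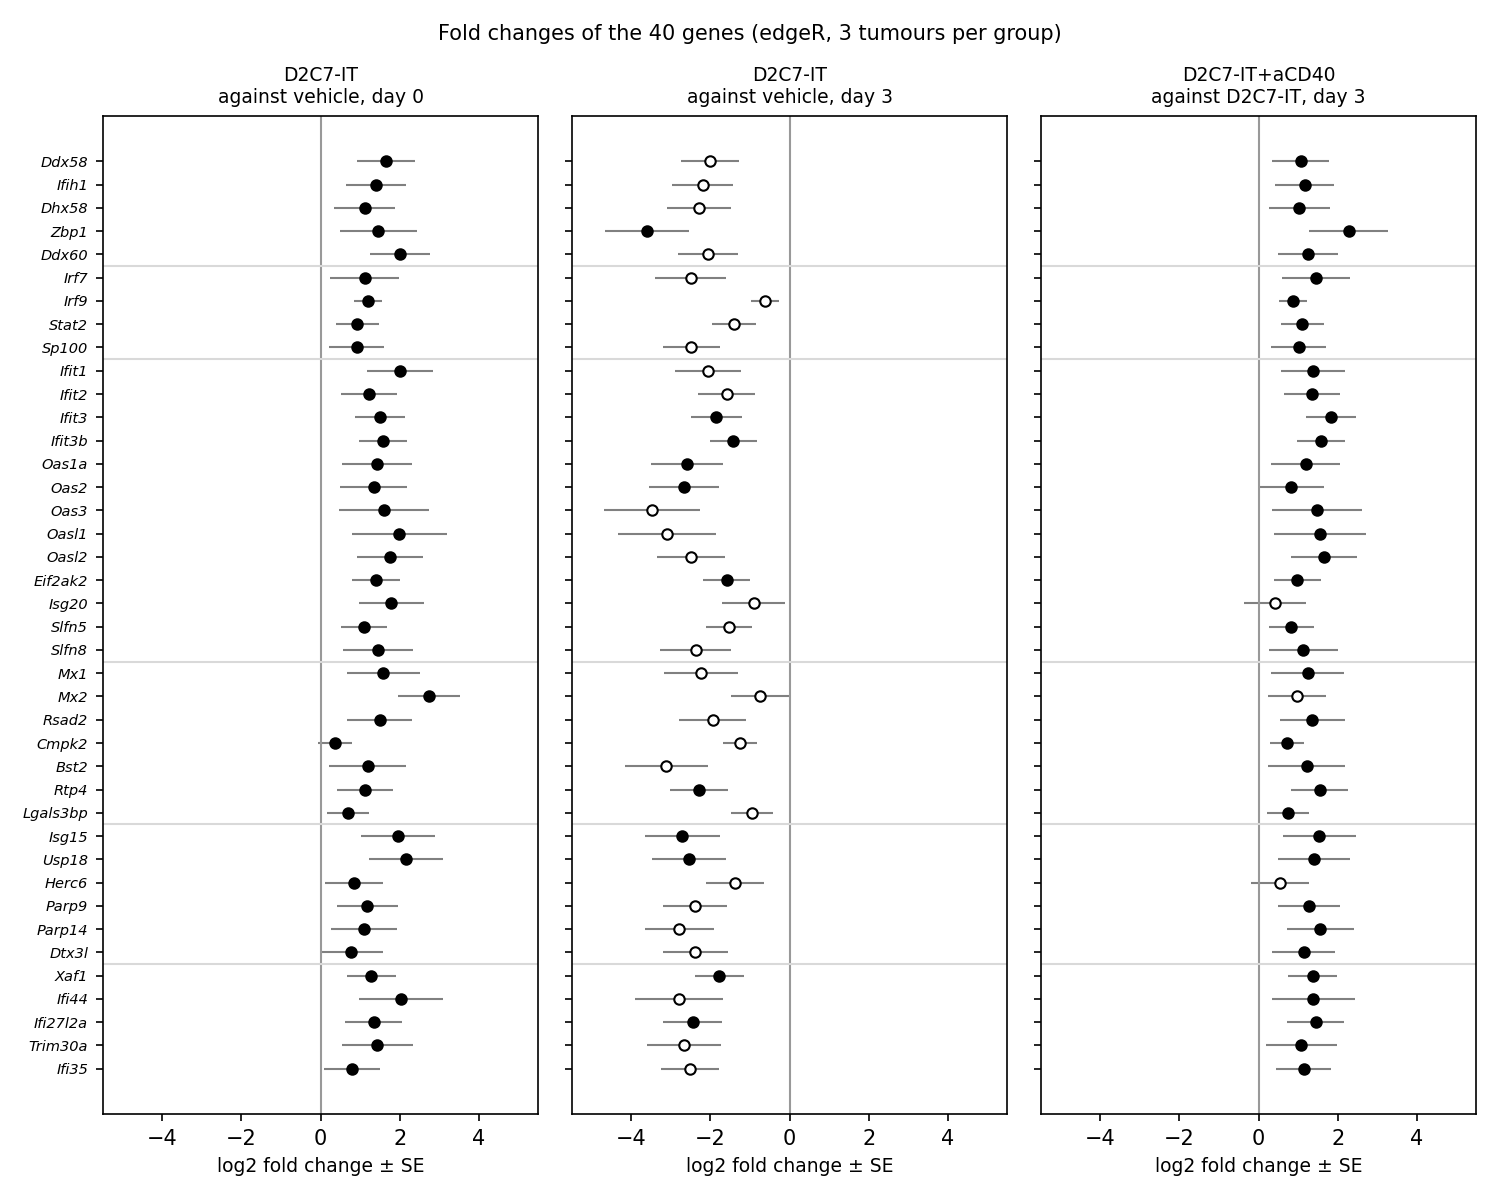
edgeR log2 fold change ± standard error of each of the 40 genes for D2C7-IT against vehicle at day 0, D2C7-IT against vehicle at day 3, and D2C7-IT+aCD40 against D2C7-IT at day 3; filled points are genes whose 3 tumours per group do not overlap, open points those that overlap. All 40 points are filled in the first panel, 11 in the second and 37 in the third.

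Genes typical of interferon gamma had the higher median in the same comparison. All 12 of that list were higher with the combination, with a median of 2.04. At an unadjusted p under 0.05 there were 8 (1.44% of all genes were higher at that level), and edgeR called 0, as of all genes tested. Igtp, an immunity-related GTPase, had 148, 187 and 229 CPM, against 23.2, 27.1 and 31.2 CPM with D2C7-IT (2.79 ± 0.86), and Irgm2 had 85.2, 82 and 118 CPM, against 12.7, 16.1 and 21.1 CPM (2.51 ± 0.76). The groups did not overlap in either gene (6.27% of all genes lay above in this way). For D2C7-IT against vehicle at day 0 the order of the lists was the other way, with a median of 0.48 for the 12 genes and 1.40 for the 40, although Gbp5, a guanylate-binding protein, was at 77.3, 157 and 109 CPM against 21.2, 14.2 and 4.89 CPM (3.09 ± 0.81). The difference between the lists was not tested.

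Immune markers also differed between these groups. Of 7 T cell markers 6 were higher with the combination than with D2C7-IT, with summed levels of 24 to 35.2 CPM against 8.9 to 27.4 CPM. Of 7 monocyte and macrophage markers 5 were higher, with sums of 54.5 to 72.1 CPM against 39.3 to 54.4 CPM. Of 6 microglia markers 1 was higher, with sums of 376 to 426 CPM against 352 to 514 CPM. The 4 NK cell markers were all higher, with sums of 1.78 to 2.19 CPM against 0.11 to 1.19 CPM, and the 5 B cell markers were too, with sums of 4.15 to 10.8 CPM against 2.14 to 3.7 CPM. Of 6 endothelial markers 5 were higher, with sums of 304 to 383 CPM against 246 to 307 CPM. The monocyte and macrophage, NK cell and B cell sums were thus free of overlap between the groups, and at an unadjusted p under 0.05 were 2, 1 and 1 of their markers (1.44% of all genes were higher at that level). By marker score, the mean log2 CPM of a list, T cell markers did not overlap either, at 1.58 to 2.19 against 0.16 to 1.01. The same held for endothelial markers, at 5.41 to 5.67 against 5.05 to 5.26. Of 8 cell cycle markers 4 were higher, with sums of 30.8 to 57 CPM against 31.3 to 67 CPM. None of these markers was at 0 in either group, and their part in the result was not tested. Leaving out each of the 6 tumours compared in turn kept the median of the 40 genes between 1.13 and 1.38.

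Between days, D2C7-IT tumours at day 3 had lower levels of 39 of the 40 genes than at day 0, with a median of −1.18. In 38 the day 3 tumours lay below all day 0 tumours (6.36% of all genes did), the others being Isg20 and Herc6. edgeR over all groups called 0 (0.00449%) and DESeq2 called 0 (0.122%), while 4 were lower at an unadjusted p under 0.05 (1.06% of all genes). On these groups alone edgeR called 14 (0.186%). Ifit3b had 12.8, 15.9 and 21.2 CPM at day 3, against 48.2, 52.9 and 44 CPM at day 0 (−1.54 ± 0.60). Usp18 had 11.8, 10.3 and 9.65 CPM at day 3, against 34.8, 44.8 and 38.6 CPM at day 0 (−1.90 ± 0.92). Isg20, an RNA exonuclease, went the other way at 9.69, 10.7 and 5.26 CPM, against 6.48, 7.46 and 5.75 CPM (0.38 ± 0.78), a difference within its error. Markers of other cells also differed between the days. Of 7 monocyte and macrophage markers 6 were lower at day 3, with sums of 39.3 to 54.4 CPM against 77.6 to 89.7 CPM at day 0. All 5 neutrophil markers tested were lower, with sums of 21.7 to 34.8 CPM against 36.8 to 42.5 CPM. Of 6 endothelial markers 5 were lower, with sums of 246 to 307 CPM against 311 to 359 CPM, and all 8 cell cycle markers were lower, with sums of 31.3 to 67 CPM against 78.8 to 94 CPM. In these 4 lists the sums did not overlap between the days, each marker had counts in both groups and edgeR called 0. NK cell marker scores were −3.69 to −1.86 at day 3, below the −1.73 to −1.37 of day 0. Egfr was 21.6 to 27.4 CPM at day 3, against 27.4 to 46.7 CPM at day 0. The part of these markers in the result was not tested.

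The combination had a median of 0.39 for day 3 over day 0, 39 of 40 higher, 0 called by edgeR or DESeq2 (0.280%), 0 at an unadjusted p under 0.05 (4.66% of all genes) and 5 free of overlap (7.07% of all genes lay above). That median was 0.09 without replicate 1 of day 0 and 0.58 without replicate 3 of day 0. In aCD40 the median was 1.60 (12 genes higher at an unadjusted p under 0.05, 9.52% of all genes, with 0 called by edgeR, 0.0583%, or DESeq2, 0.551%), but without replicate 1 of day 3 it was −0.30. In vehicle it was 2.47, with 0 called by edgeR (smallest adjusted p 0.11), 32 by DESeq2 (12.7%) and all 40 at an unadjusted p under 0.05 (22.0% of all genes were higher). The day 3 tumours lay above all day 0 tumours in 5 genes (6.49% of all genes). Isg20 (3.09 ± 0.85), Sp100 (2.45 ± 0.72) and Ddx60 (2.57 ± 0.78) had the smallest p-values. The vehicle tumour of low Egfr had 2.22, 13.7 and 7.27 CPM of these 3 genes, near or within the day 0 values, and without the high-Egfr tumours the median was 0.13. Without that low-Egfr tumour, vehicle day 3 replicate 1, edgeR called all 40 (42.5%).

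The D2C7-IT effect itself, tested as its day 3 value minus its day 0 value, had a median of −3.58, with 0 called by edgeR (smallest adjusted p 0.28), 6 by DESeq2 (0.416%) and all 40 lower at an unadjusted p under 0.05 (12.2% of all genes). Ddx60 (−4.05 ± 1.08), Ifi27l2a (−3.79 ± 1.03) and Ifit3 (−3.35 ± 0.91) had the smallest p-values. Without the high-Egfr tumours the median was −1.36, and without vehicle day 3 replicate 1 edgeR called 38 (17.5%). The same difference for the combination had a median of −1.98, or 0.28 without the high-Egfr tumours (0 called by edgeR or DESeq2, 0.0452%, and 2 lower at an unadjusted p under 0.05, 5.84% of all genes). For aCD40 it was −0.78 (0 called by edgeR or DESeq2, 0.0316%, and 0 at an unadjusted p under 0.05, 1.22%), or −2.66 without aCD40 day 3 replicate 1, −0.44 without all 3 high-Egfr tumours and −0.16 without aCD40 day 0 replicate 3. The departure of the combination from the sum of its agents had a median of 1.45 at day 3, with all 40 positive, 0 called by edgeR or DESeq2 (0 of all genes by either) and 2 at an unadjusted p under 0.05 (0.426% of all genes). It was 1.08 without the high-Egfr tumours, and 3.25 without aCD40 day 3 replicate 1 alone.

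Among themselves the 40 genes differed in level and in range more than in pattern. Per kilobase of exon, Bst2, the tetherin that holds budding virions at the membrane, had the highest mean over all tumours at 112 CPM per kb, before Isg15 (60.5), Ifit3 (56.7), Lgals3bp (52.3) and Ifi27l2a (47.8). Ifih1 (3.76), Ddx60 (1.94) and Oas3 (1.9) were the lowest. Across the 24 tumours each gene's log2 level had a Pearson r of 0.83 to 1.00 with the mean of the other 39, and 31 genes reached 0.95. These points share libraries and scaling, and the 3 high-Egfr tumours widen the range. Within groups, as deviations from group means, r was 0.87 to 1.00.

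The genes least like the rest were Mx2 (r 0.83), Isg20 (0.85), Ifit3b (0.87), Herc6 (0.88) and Cmpk2 (0.89). Mx2 was the one whose highest level, 35.8 CPM, was in a D2C7-IT tumour at day 0, and it reached 24.2 to 29.7 CPM in the high-Egfr tumours. The range from the lowest to the highest tumour was 2.03 on the log2 scale in Irf9, the narrowest, against 6.81 in Zbp1, 7.10 in Oasl1 and 7.4 in Oas3. Zbp1 ran from 1.76 to 204 CPM, and Oasl1 from 0.661 to 98.1 CPM, the lowest in vehicle day 0 replicate 3 and the highest in aCD40 day 3 replicate 1. Many of the 40 lie side by side in the genome: Ifit1, Ifit2, Ifit3 and Ifit3b on chromosome 19, the Oas genes on chromosome 5, Parp9, Dtx3l and Parp14 on chromosome 16, and Rsad2 and Cmpk2 on chromosome 12. Of the 40, 15 overlap another gene, 14 of them on the other strand, from which reads cannot be told apart in these libraries that do not mark strand.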

How the data were processed

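Whole-number gene counts, not normalized, were deposited by the authors for 24 tumours in 6 tables of 36 columns. 12 columns repeat another, with 0 cells that differ, and 0 columns of per-sample values lacked a sample. Tools named in the submitters' processing notes are STAR 2.5.2b, Subread 1.5.2 (featureCounts), Trimmomatic 0.36 and bcl2fastq 2.17, with GRCm38 as the build. Per the labels' protocols, oligo(dT) enrichment and the NEBNext Ultra RNA kit were used, so strand was not marked. The sources used here give neither the annotation nor the strand setting. GENCODE M21 names 49056 of the 49315 gene identifiers, and promoter windows are RefSeq's.

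The counts were filtered with filterByExpr and scaled by TMM in edgeR 4.0.16 (R 4.3.3). A robust quasi-likelihood model with a mean for each group was fitted to all 24 libraries, with 16 residual degrees of freedom and a common coefficient of biological variation of 0.41. Comparisons were each treatment against vehicle by day, the combination against each agent and against their sum on the log2 scale, day 3 against day 0, and the difference of effects between days. Log2 CPM used a prior count of 2. DESeq2 1.42.0, other size factors, no filter, a replicate block, the groups compared alone and each tumour left out were alternatives, and leaving out the 3 high-Egfr tumours was added after seeing the data. The edgeR test of D2C7-IT against vehicle at day 0 was also run on simulated counts, with the coefficient of 0.41 for every gene. Those counts held no split groups like aCD40 and vehicle at day 3, so they cannot speak to the comparisons that use these groups. Every pair of replicates differed beyond sampling noise (chi-square per degree of freedom of 28.2 or more), so none was a repeat of another library. The labels describe each tumour as implanted in its own mouse, and p-values measure the spread between these tumours.

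The genes, role groups and marker lists were chosen with earlier results of these data known. Given in full are Ifit1, Isg15, Rsad2, Irf7, Usp18, Mx2, Zbp1 and Oasl1, the 3 genes of smallest p in each treatment comparison, and Ifnb1, Ifnar1 and up to 2 genes of smallest p in other lists. A gene that the rule also takes is not reported here. Genes named beyond these were chosen after their values were seen.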

Additional observations from a re-analysis of the deposited data

How the results depend on the processing

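Of 880 recomputed values, 833 kept their direction and their side of the threshold or stayed within the spread between tumours. Of the others, 25 moved further, 12 gained a call in a named gene and 10 turned direction. A gene could count once for each comparison and alternative. For D2C7-IT against vehicle at day 0, each of the 6 tumours compared, left out in turn, gave a median of 1.01 to 1.73 over the 40 genes, and likewise for the combination against D2C7-IT at day 3 a median of 1.13 to 1.38. The numbers of genes called were the least stable. DESeq2 called 1 of the 40 for D2C7-IT against vehicle at day 0 (0.623% of all genes) and 25 at day 3 (13.0%). It called 32 for vehicle between days (12.7%) and 6 for the difference of the D2C7-IT effect between days (0.416%). The main edgeR fit called 0 in each (0.0808% of all genes for D2C7-IT at day 0, and 0 in the others). Fitted on the groups compared alone, edgeR called 2 for the combination against D2C7-IT at day 3 (0.0934% of all genes) and 14 for D2C7-IT between days (0.186%).

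Calls also moved on leaving out 1 tumour of the groups compared at a time, with the share of all genes at the highest count in brackets. Against vehicle at day 3 they ranged from 0 to 5 for aCD40 (6.58%), 0 to 36 for D2C7-IT (36.8%) and 0 to 3 for the combination (31.2%). They ranged from 0 to 40 for vehicle between days (42.5%) and 0 to 38 for the difference of the D2C7-IT effect (17.5%). The highest values came without vehicle day 3 replicate 1, except for aCD40, where it was aCD40 day 3 replicate 1. The medians ranged from −2.06 to 0.25 for aCD40 against vehicle at day 3, −1.21 to 1.10 for the combination against aCD40 at day 3, −0.30 to 2.26 for aCD40 between days, −2.66 to −0.16 for the difference of the aCD40 effect, 0.10 to 1.12 for the combination against aCD40 and −0.55 to −0.08 against D2C7-IT at day 0, 0.09 to 0.58 for the combination between days, −1.47 to −0.26 for the departure from additivity at day 0 and 0.99 to 3.25 at day 3. For the combination against aCD40 at day 3, Sp100 ranged from −1.92 to 0.19, Oas3 from −2.75 to 1.09 and Oas2 from −2.05 to 0.83, and Ifit3b for aCD40 against vehicle at day 3 from −1.32 to 0.03.

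Without the 3 high-Egfr tumours, at day 3 the medians were 0.02 for D2C7-IT against vehicle, 1.29 for the combination against vehicle and 1.11 for the combination against aCD40. Between days they were −0.30 for aCD40 and 0.13 for vehicle, and the differences of effects were −0.44 for aCD40, −1.36 for D2C7-IT and 0.28 for the combination. The combination then exceeded vehicle by 0.67 in Oas2, 0.77 in Sp100 and 1.07 in Ifi35, and aCD40 by 0.19 in Sp100, 1.10 in Oas3 and 0.83 in Oas2. 0 of the 40 were called in those fits. The longer motif was in 0.944% of all genes' windows. The causes of these shifts were not tested.

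Replicate numbers did not pair the tumours: in 0 of 14 comparisons did all 3 same-numbered pairs correlate above 0.1 (range −0.91 to 0.46). With the replicate number as a block, edgeR called 0 of the 40 in every comparison. The other size factors and the absence of a filter moved none of the medians or counts. The other prior counts (0.5 and 5) were applied only to the group means of the 40-gene score, and moved none of these. Depth limits the interferon ligands, of which Ifnb1 had 157 counts in all 24 libraries.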

Other observations

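By their medians at day 0, the genes typical of interferon gamma were ordered differently across treatments from the 40 antiviral genes. Against vehicle, the median log2 fold change of the 12 was 1.35 with aCD40, 0.48 with D2C7-IT and 1.60 with the combination, where the 40 genes had 0.56, 1.40 and 0.94. edgeR called 0 of the 12 in each, where it called 0%, 0.0808% and 0% of all genes. At an unadjusted p under 0.05, 0, 1 and 4 of the 12 were higher, against 0.929%, 3.61% and 1.86% of all genes. By the mean log2 CPM of the 12, each treatment overlapped vehicle. Of the aCD40 tumours, only replicate 3 lay above every vehicle tumour, and replicates 1 and 2 lay within the vehicle range. With D2C7-IT and with the combination, replicate 1 lay below the highest vehicle tumour. The order of the medians thus depended on single tumours, above all for aCD40. Igtp, a GTPase that acts on pathogen vacuoles, had 63.8, 135 and 245 CPM with the combination at day 0, against 41.2, 40.6 and 38.9 CPM with D2C7-IT. Iigp1, of the same family, had 30.1, 81.6 and 125 CPM with the combination, against 25.1, 24.5 and 22.1 CPM with D2C7-IT. The combination lay above D2C7-IT in both genes, with log2 fold changes of 1.88 ± 0.83 and 1.72 ± 1.05 (edgeR adjusted p 1). Over all genes tested, 6.07% lay above in this way. Gbp5 departed from that order, at 26.6, 137 and 55.5 CPM with the combination, against 77.3, 157 and 109 CPM with D2C7-IT. Ifng itself had 2, 4 and 2 counts with the combination, against 2, 4 and 0 with D2C7-IT. The lists were not tested against each other.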
